A study of Homo sapiens with 10 samples.

Results

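MYC, its neighbouring long noncoding RNA PVT1 and the genes of the MAX network were followed in K562 cells, an established human myelogenous leukemia line, treated for 48 h with CREBBP/EP300 bromodomain inhibitors. The genes were taken by symbol from the deposited expression table: MYC, PVT1, MAX, MLX, MXD1, MXD3, MXD4, MXI1, MNT and MGA, which are 10 of its 23284 genes, and all 10 passed the filter on low values that 12788 genes passed. The 5 groups were cells given vehicle (DMSO), 2 µM CBP30, 5 µM CBP30, 2 µM I-CBP112 or 5 µM I-CBP112, with 2 biological replicates per group and 10 samples in all. CBP30 and I-CBP112 are small molecules that bind the bromodomains of the histone acetyltransferases CREBBP and EP300, and comparing them with DMSO asks which genes respond to that inhibition. All samples came from a single cell line, and polyadenylated RNA was sequenced from bulk cells.

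MYC is a transcription factor that binds DNA as a dimer with MAX at E-box sequences and activates genes of ribosome production, nucleotide synthesis and cell growth. The proteins MXD1, MXD3, MXD4, MXI1 and MNT compete for the same partner and the same sites, and recruit the SIN3 corepressor complex, while MGA pairs with MAX in a Polycomb complex and MLX is a MAX-like partner that also serves the glucose-sensing Mondo proteins. PVT1 is transcribed downstream of MYC in the same direction, from a region often amplified together with it in tumors. In erythroid leukemia cells such as K562, MYC is expressed at a high level and supports proliferation.

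The E-box CACGTG, the sequence that the MAX dimers bind, was looked for in the RefSeq promoter windows (GRCh38.p14) of the MAX network genes other than MYC, each running from 250 bases before to 50 bases after a transcript start. The word reads the same on both strands. It was found once in a window of MXD4, MNT and MLX, whose sequences are shown 5′ to 3′ because they carry the binding word of the network's own dimers, with the E-box in capitals.
MXD4 (chr4:2262060-2262359, minus strand): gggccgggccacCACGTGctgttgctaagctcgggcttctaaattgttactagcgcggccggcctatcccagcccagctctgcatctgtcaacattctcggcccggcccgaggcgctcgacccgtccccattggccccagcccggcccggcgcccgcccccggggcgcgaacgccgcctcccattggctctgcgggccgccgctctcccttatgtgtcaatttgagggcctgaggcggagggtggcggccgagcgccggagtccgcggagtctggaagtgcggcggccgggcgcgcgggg
MNT (chr17:2401011-2401310, minus strand): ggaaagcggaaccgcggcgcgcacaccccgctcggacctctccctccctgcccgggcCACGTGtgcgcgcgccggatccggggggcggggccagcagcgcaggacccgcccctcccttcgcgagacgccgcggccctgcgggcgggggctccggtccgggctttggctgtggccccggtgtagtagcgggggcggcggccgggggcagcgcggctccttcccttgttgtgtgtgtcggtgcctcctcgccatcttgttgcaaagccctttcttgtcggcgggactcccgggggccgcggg
MLX (chr17:42566850-42567149, plus strand): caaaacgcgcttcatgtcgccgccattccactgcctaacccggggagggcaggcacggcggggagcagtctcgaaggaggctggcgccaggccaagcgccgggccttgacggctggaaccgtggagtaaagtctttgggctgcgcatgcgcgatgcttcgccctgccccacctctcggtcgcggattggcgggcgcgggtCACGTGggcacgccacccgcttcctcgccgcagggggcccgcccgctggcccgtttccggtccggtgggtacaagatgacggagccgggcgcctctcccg
The E-box begins at position −238 in MXD4, −193 in MNT and −50 in MLX, counted from the transcript start. No window of MXD1, MXD3, MXI1, MAX or MGA held the word, and 7.2% of all 34796 promoter windows did. A match describes these letters only and is no measure of binding.

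The positions of the genes are those of the GENCODE annotation on GRCh37, the build the authors used. MYC lies at chr8:128747680-128755197 on the plus strand, and PVT1 starts 59.1 kb downstream of the MYC start, at chr8:128806772-129199347. MAX and MLX lie at chr14:65472892-65569413 (minus strand) and chr17:40719090-40725257 (plus strand). The repressor genes are at chr2:70124820-70170077 (MXD1, plus), chr5:176728462-176739758 (MXD3, minus), chr4:2249159-2263836 (MXD4, minus), chr10:111967363-112047123 (MXI1, plus) and chr17:2287367-2304398 (MNT, minus), and MGA is at chr15:41913332-42065279 (plus). Exons of MXD1 overlap those of SNRNP27 on the same strand and exons of MXD3 overlap those of RAB24, so reads there may be split between genes. Exons of MYC, MAX and MLX overlap CASC11, FNTB and PSMC3IP on the opposite strand, and the use of strand in the quantification is not given in the sources used here.

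Expression was given in FPKM, the fragments of a gene relative to its transcript length and to all mapped reads. Read counts were not part of the table, so library depth is unknown, and the error of each value is the spread of its replicates. The erythroid marker ALAS2, an enzyme of haem synthesis, was present (27.4 to 35.7 FPKM) in every sample, and MS4A1 and KRT5 of other cell types were listed at 0 throughout. The summed level of 10 erythroid markers moved with the treatments, from 1930 to 1979 FPKM in DMSO to 725 to 943 with 2 µM CBP30, 651 to 679 with 5 µM CBP30, 1162 to 1283 with 2 µM I-CBP112 and 1117 to 1207 with 5 µM I-CBP112. Of the 10, 7 were called lower (adjusted p under 0.05 in limma) at 2 µM CBP30, where 16.3% of all tested genes were, and 8 lower and 1 higher at 5 µM CBP30, where 25.4% and 21.2% were. At 2 and 5 µM I-CBP112, 1 and 4 were called lower, with 0.735% and 3.28% of all genes. A fit of only the groups compared called 0 of the 10 at 2 µM CBP30 (1.28% of all genes lower), and without replicate 1 of 2 µM CBP30 8 were lower at 2 µM I-CBP112 (4.9% of all genes). The part of these markers in the results was not tested. Replicate 1 of 2 µM CBP30 stood apart from the other libraries. Its genes with the shortest transcripts (the lowest of 5 equal bins) had a median difference from DMSO of 0.30 on the log2 scale. Those with the longest had −0.30, against 0.0018 and −0.02 in replicate 2. Differences of single members that use 2 µM CBP30 are therefore also given without replicate 1, while some counts and list genes are given only with it. Both samples of 5 µM CBP30 had a smaller shift the other way. Their shortest transcripts were at −0.12 and −0.11 and their longest at 0.12 in both. Comparisons with 5 µM CBP30 thus also carry a difference by transcript length, and removal of this trend is among the alternatives run.

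In DMSO, MYC was the most highly expressed member, at 329 ± 12.4 FPKM (mean ± SD, n = 2 here and below). MAX followed at 47.8 ± 2.00, MXD3 at 35.0 ± 1.09, PVT1 at 29.6 ± 0.923, MLX at 26.7 ± 0.581, MXI1 at 13.6 ± 0.520 and MXD4 at 8.91 ± 0.0844 FPKM. The replicates of each of these genes lay above those of the next in the order. MNT (7.44 ± 0.115), MXD1 (7.39 ± 0.0602) and MGA (7.26 ± 0.515) had the lowest levels, and neighbours among these 3 overlapped. With 5 µM CBP30 the order changed, as PVT1 moved from rank 4 to rank 10 and MXD1 from rank 9 to rank 5. There the replicates of MXD1 overlapped those of MXD4, the next in the order.

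**Figure D1:**
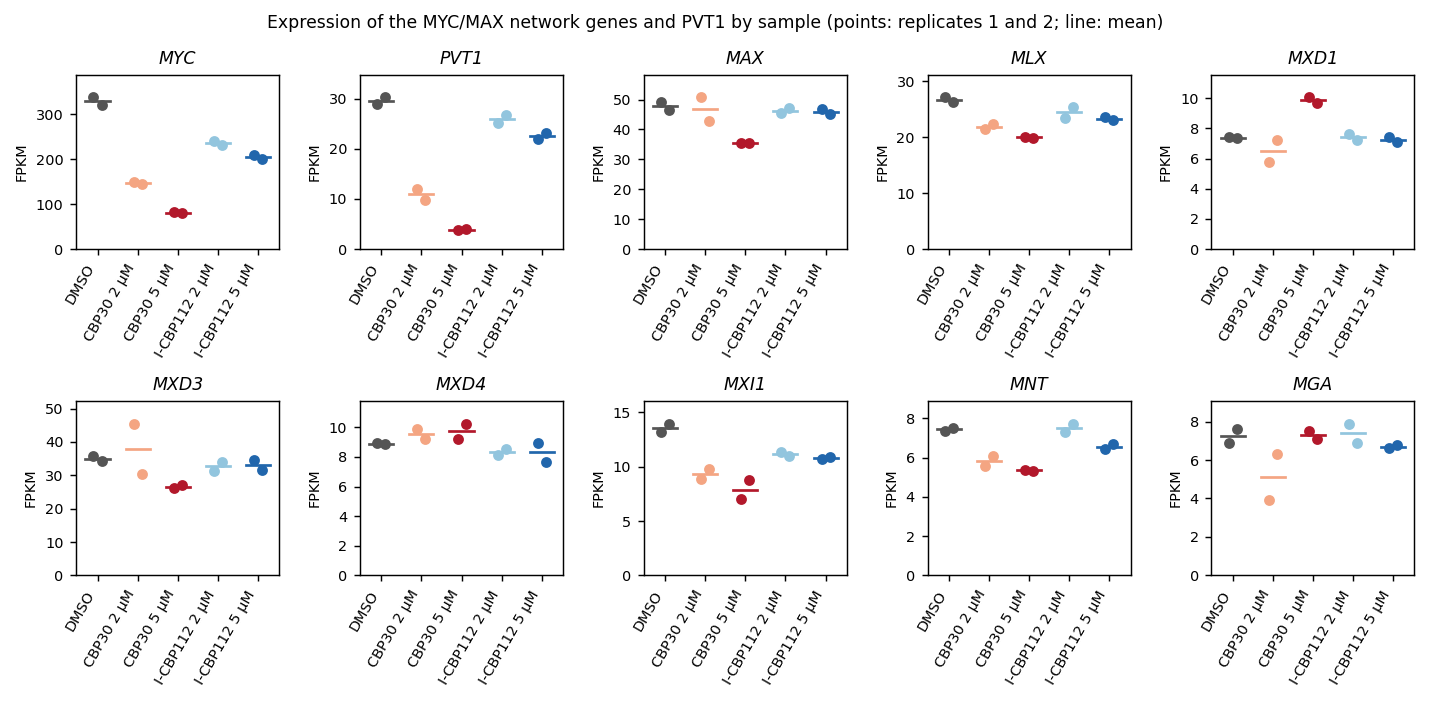
FPKM of the 10 genes in the 10 samples, with 1 panel per gene, each vertical axis starting at 0, points for replicates 1 and 2, and lines for the mean of a group. MYC and PVT1 step down with both CBP30 concentrations, MXD1 is highest with 5 µM CBP30, and MXD3 and MGA are spread widest in 2 µM CBP30, where replicate 1 stands apart.

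MYC and PVT1 were downregulated by CBP30 in a concentration-dependent manner, and MYC, to a lesser extent, by I-CBP112. MYC was at 338 and 320 FPKM in DMSO. It was at 148 and 146 FPKM with 2 µM CBP30, at 81.7 and 80.9 with 5 µM CBP30, at 241 and 231 with 2 µM I-CBP112 and at 210 and 201 with 5 µM I-CBP112 (as plotted by sample). No 2 groups overlapped, and the mean fell to 44.7%, 24.7%, 71.7% and 62.4% of DMSO, in that order. The difference from DMSO, taken on the log2(FPKM + 1) scale, where changes at low levels look smaller than they are, was −1.16 ± 0.0525 (SE) with 2 µM CBP30 (adjusted p = 3.6e-05, limma; −1.17 without replicate 1 of that group) and −2.00 with 5 µM CBP30 (adjusted p = 1.02e-06). I-CBP112 gave −0.48 at 2 µM (adjusted p = 0.00941) and −0.68 at 5 µM (adjusted p = 0.000959). These 4 comparisons share the DMSO samples. In bulk RNA, fewer cells with MYC and less MYC RNA per cell cannot be told apart.

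The call with 2 µM I-CBP112 was the least firm for MYC. Leaving out either DMSO sample or either sample of 2 µM I-CBP112 gave −0.44 to −0.52 with adjusted p of 0.063 to 0.0897, quantile normalization gave an adjusted p of 0.0533, and a fit of only those groups gave 0.0705. Among all tested genes, MYC ranked at the 0.719th percentile from the lowest difference with 5 µM CBP30, the 1.35th with 2 µM CBP30, the 1.54th with 2 µM I-CBP112 and the 1.19th with 5 µM I-CBP112.

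PVT1 was at 28.9 and 30.2 FPKM in DMSO, 12.03 and 9.83 with 2 µM CBP30 and 3.78 and 4.003 with 5 µM CBP30. Both CBP30 groups lay below DMSO and apart from each other, at 36.9% and 13.2% of the DMSO mean. The differences were −1.36 (adjusted p = 0.000132) and −2.64 (adjusted p = 2.88e-06), and without replicate 1 of 2 µM CBP30 the former was −1.50 (adjusted p = 5.43e-05). With I-CBP112, PVT1 was at 25.2 and 26.6 FPKM at 2 µM and at 22.0 and 23.1 at 5 µM. These values also lay below both DMSO samples, but the differences of −0.19 (95% interval −0.40 to 0.02, adjusted p = 0.429) and −0.38 (−0.59 to −0.17, adjusted p = 0.0511) did not pass the test. The latter passed it without replicate 1 of 2 µM CBP30 (adjusted p = 0.00468), without replicate 2 of that group (adjusted p = 0.0047), and when the trend with transcript length was removed (adjusted p = 0.00983).

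PVT1 did not keep a fixed proportion to MYC. It amounted to 8.57% and 9.45% of the MYC level in the DMSO samples, on the FPKM scale. With CBP30 the share was lower, at 8.12% and 6.74% at 2 µM and at 4.63% and 4.95% at 5 µM. With I-CBP112 it was higher, at 10.4% and 11.6% at 2 µM and at 10.5% and 11.5% at 5 µM. Thus the samples of the compounds lay on opposite sides of both DMSO samples. The log2 ratio differed from that of DMSO by −0.28 at 2 µM CBP30 and −0.91 at 5 µM CBP30, and by 0.29 at either concentration of I-CBP112. At 2 µM CBP30 it rested on single samples, with −0.42 without replicate 1 of that group and −0.15 without replicate 2. The ratio is given as a description and was not tested.

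**Figure D2:**
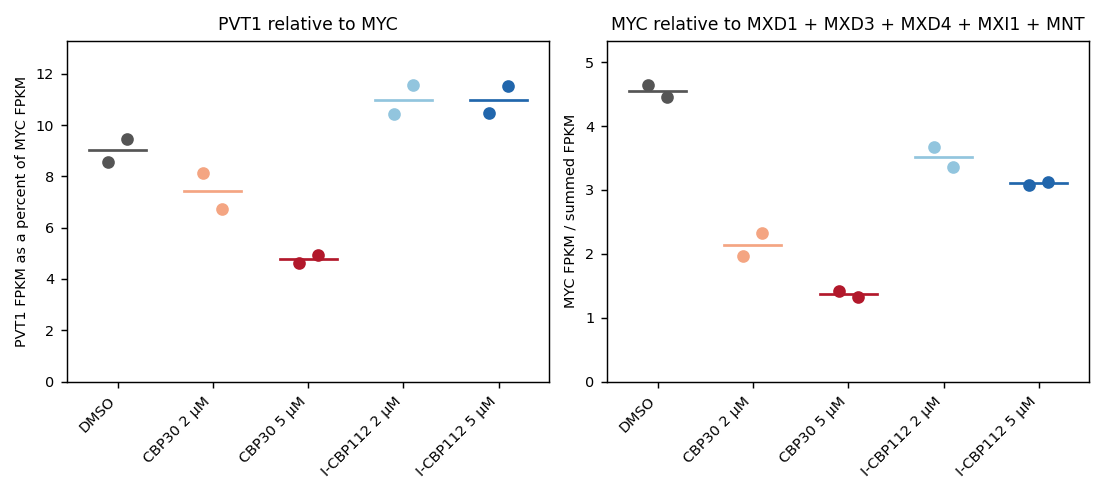
PVT1 FPKM as a percent of MYC FPKM (left) and MYC FPKM divided by the summed FPKM of MXD1, MXD3, MXD4, MXI1 and MNT (right) in each sample, with points for replicates and lines for means. The PVT1 share is 4.63% to 4.95% with 5 µM CBP30 and 10.4% to 11.6% with I-CBP112, and the MYC ratio falls from 4.45 to 4.64 in DMSO to 1.33 to 1.41 with 5 µM CBP30.

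Of 15 other genes listed around MYC on chromosome band 8q24, 7 passed the filter. One of these, MIR1204, was listed above 0 in a single sample of 2 µM CBP30 and is left out here, a choice made after its values were seen. The other 6 lie far from MYC. The nearest, FAM49B, starts 2282.1 kb from the MYC start, and the farthest, SQLE, at −2736.9 kb, where minus means before MYC. Nearer genes such as POU5F1B (−413.3 kb) did not pass the filter, so apart from PVT1 the closer surroundings of MYC are not covered. Of these 6, 2 were lower and 2 higher with 2 µM CBP30, where 16.3% of all genes were lower and 15.9% higher. With 5 µM CBP30, 1 was lower and 3 were higher, where 25.4% and 21.2% of all genes were, and the median difference was 0.01 against −0.01 over all tested genes. ASAP1, a regulator of the cytoskeleton, fell by 1.31 on the log2 scale (adjusted p = 0.00126). SQLE, an enzyme of cholesterol synthesis, rose by 0.75 (adjusted p = 4.18e-05), TRIB1, a pseudokinase, by 0.66 and FAM49B by 0.21. With so few genes the counts are a description only.

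Among the 10 members, CBP30 downregulated 5 at 2 µM, where 32.1% of all tested genes were called (16.3% lower and 15.9% higher). At 5 µM it downregulated 6 and upregulated 1, where 46.6% of all genes were called (25.4% lower and 21.2% higher). I-CBP112 downregulated only MYC at either concentration, where 1.6% and 7.12% of all genes were called at 2 and 5 µM (0.735% lower and 0.868% higher at 2 µM, 3.28% lower and 3.84% higher at 5 µM). The median difference of the members was −0.29, −0.41, −0.09 and −0.13 with 2 µM CBP30, 5 µM CBP30, 2 µM I-CBP112 and 5 µM I-CBP112, while the medians over all tested genes lay between −0.01 and 0.01. Without replicate 1 of 2 µM CBP30, 6 members were called for 2 µM CBP30 (37.1% of all genes), 8 for 5 µM CBP30 (62.9%) and 4 for 5 µM I-CBP112 (23%), so calls rose among all genes as well. Without replicate 2, which leaves only the library that stood apart in its group, 8 were called for 2 µM CBP30 (56.8% of all genes), with MXD1 (−0.31), MXD3 (0.37) and MGA (−0.75) added. A fit of only 2 µM CBP30 and DMSO called 2.4% of all genes and 2 members, MYC and PVT1, while MLX, MXI1 and MNT did not pass (adjusted p = 0.13, 0.0912 and 0.165).

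**Figure D3:**
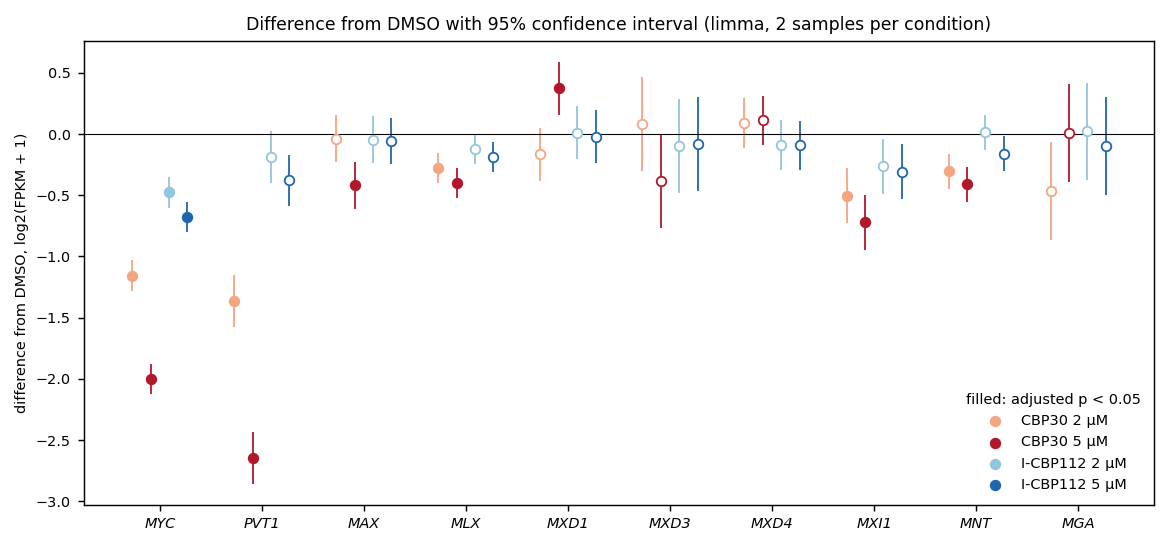
Difference of each gene from DMSO on the log2(FPKM + 1) scale with 95% confidence intervals for the 4 treatments, filled points marking an adjusted p under 0.05. The CBP30 points of MYC and PVT1 lie between −1.16 and −2.64, all the other filled points lie between −0.72 and 0.37, among them MYC with I-CBP112 at −0.48 and −0.68, and MXD1 with 5 µM CBP30 is the only filled point above 0.

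MAX and MLX were affected less than MYC. MAX, the obligate partner of MYC, was at 49.2 and 46.4 FPKM in DMSO and at 35.6 and 35.4 with 5 µM CBP30. Both treated samples lay below DMSO, at 74.3% of its mean (difference −0.42 ± 0.0807, adjusted p = 0.00483). With 2 µM CBP30 MAX was at 50.7 and 42.7 FPKM, overlapping DMSO, and the difference of −0.04 did not pass the test (adjusted p = 0.745). Without replicate 1 of that group it was −0.16 and passed (adjusted p = 0.0429). With I-CBP112 MAX lay between 45.004 and 47.0 FPKM, with differences of −0.05 (95% interval −0.24 to 0.14) and −0.06 (−0.25 to 0.13). MYC was 6.86 and 6.90 times MAX in the DMSO samples and 2.29 and 2.28 times MAX with 5 µM CBP30.

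MLX, the MAX-like partner, was at 27.1 and 26.3 FPKM in DMSO, 21.4 and 22.3 with 2 µM CBP30 and 20.1 and 19.8 with 5 µM CBP30. The groups did not overlap, and MLX was downregulated by 0.28 (adjusted p = 0.00804) and 0.40 (adjusted p = 0.000816). The former was −0.25 without replicate 1 of 2 µM CBP30 (adjusted p = 0.0131), and it did not pass without replicate 1 of DMSO (adjusted p = 0.0573). With I-CBP112 MLX was at 23.5 and 25.4 FPKM at 2 µM and at 23.6 and 23.1 at 5 µM. These values lay below both DMSO samples, as in 28.3% and 33.7% of all genes, without passing the test (adjusted p = 0.355 and 0.0819).

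Of the 5 repressors of the network, CBP30 downregulated 2 at 2 µM, where 16.3% of all genes were lower and 15.9% higher. It downregulated 2 and upregulated 1 at 5 µM, where 25.4% and 21.2% of all genes were lower and higher. I-CBP112 changed 0 at an adjusted p under 0.05 in limma, where 1.6% and 7.12% of all genes were called at 2 and 5 µM (1 and 2 of the repressors had an unadjusted p under 0.05). Their median difference was −0.17 and −0.38 with 2 and 5 µM CBP30, and −0.09 at both concentrations of I-CBP112.

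MXI1, the MXD family member with the strongest decrease, was at 13.2 and 14.0 FPKM in DMSO, 8.84 and 9.74 with 2 µM CBP30 and 7.02 and 8.75 with 5 µM CBP30. All CBP30 samples lay below DMSO, although the CBP30 groups approached each other. The differences were −0.50 (adjusted p = 0.00813) and −0.72 (adjusted p = 0.000872). The former was −0.44 without replicate 1 of 2 µM CBP30 (adjusted p = 0.0255), and did not pass without replicate 2 of DMSO (adjusted p = 0.0585). With I-CBP112 MXI1 was at 11.3 and 10.98 FPKM at 2 µM and at 10.7 and 10.9 at 5 µM. These values were lower than both DMSO samples, as in 28.3% and 33.7% of all genes, but not past the test (adjusted p = 0.273 and 0.11).

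MNT, a broadly expressed antagonist of MYC, was at 7.36 and 7.52 FPKM in DMSO, 5.57 and 6.10 with 2 µM CBP30 and 5.39 and 5.31 with 5 µM CBP30. Again the CBP30 samples were lower than DMSO without overlap, with differences of −0.30 (adjusted p = 0.00981) and −0.41 (adjusted p = 0.00141). The former was −0.25 without replicate 1 of 2 µM CBP30 (adjusted p = 0.0152), and did not pass without replicate 2 of DMSO (adjusted p = 0.0641). With 2 µM I-CBP112 MNT overlapped DMSO, at 7.30 and 7.73 FPKM, and with 5 µM I-CBP112 it was at 6.42 and 6.69 FPKM (difference −0.16, adjusted p = 0.176).

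MXD1, a repressor linked to differentiation, was the only member upregulated. It was at 7.43 and 7.35 FPKM in DMSO and at 10.1 and 9.67 FPKM with 5 µM CBP30. Both treated samples exceeded DMSO, by a mean difference of 0.37 ± 0.0916 (adjusted p = 0.0135). Leaving out either DMSO sample or either sample of 5 µM CBP30 kept the difference between 0.35 and 0.40, with adjusted p of 0.0535 to 0.0786. With 2 µM CBP30 MXD1 was at 5.78 and 7.25 FPKM, both below DMSO, and the difference of −0.17 did not pass (adjusted p = 0.202, and −0.02 without replicate 1 of that group). With I-CBP112 it was between 7.09 and 7.65 FPKM and overlapped DMSO.

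MXD3, a family member known from cycling cells, made up the largest part of the repressor RNA. It was at 35.8 and 34.2 FPKM in DMSO and at 26.2 and 27.0 with 5 µM CBP30, lower in both treated samples. The difference of −0.38 (95% interval −0.77 to 0.001) did not pass the test (adjusted p = 0.0933). It passed without replicate 1 or replicate 2 of 2 µM CBP30 (adjusted p = 0.00174 in both), and with the length trend removed at −0.23 (adjusted p = 0.0442). With 2 µM CBP30 the replicates were at 45.5 and 30.4 FPKM, on opposite sides of DMSO, and replicate 1 set the sign of the difference (0.08 with it, −0.20 without it, adjusted p = 0.719 and 0.0719). The canonical MXD3 transcript has 1067 bases, the shortest of the members.

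MXD4, a family member of resting and differentiating cells, was at 8.97 and 8.85 FPKM in DMSO and at 9.19 and 10.3 with 5 µM CBP30. No treatment changed it beyond the test, with differences from −0.09 to 0.11 and adjusted p of 0.315 or more (0.09 at 2 µM CBP30, and 0.04 without replicate 1 of that group). MGA, the MAX partner of the Polycomb complex PRC1.6, was at 6.90 and 7.63 FPKM in DMSO and at 7.51 and 7.07 with 5 µM CBP30, overlapping it (difference 0.01, 95% interval −0.39 to 0.41). With 2 µM CBP30 MGA was at 3.90 and 6.29 FPKM, below DMSO in both samples. That difference of −0.47 did not pass the test (adjusted p = 0.0748), and was −0.18 without replicate 1 (adjusted p = 0.174). Its canonical transcript of 12193 bases is the longest of the members.

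The balance of MYC to its repressors followed MYC. The summed level of the 5 repressors was 72.8 and 71.9 FPKM in DMSO, 75.6 and 62.6 with 2 µM CBP30, and 57.9 and 61.0 with 5 µM CBP30. I-CBP112 left it at 65.7 and 68.6 FPKM at 2 µM and at 68.0 and 64.1 at 5 µM. MYC was 4.64 and 4.45 times this sum in DMSO, and 1.96 and 2.33 times with 2 µM CBP30. On the log2 scale that was −1.09 relative to DMSO, and −0.96 without replicate 1 of 2 µM CBP30. With 5 µM CBP30 the ratio was 1.41 and 1.33, so the sum of the repressors came close to MYC. It was 3.67 and 3.36 with 2 µM I-CBP112 and 3.08 and 3.13 with 5 µM I-CBP112, below DMSO in all 4 samples. Within the sum, MXD1 rose from 10.2% in both DMSO samples to 17.4% and 15.9% with 5 µM CBP30, and MXI1 went from 18.2% and 19.4% to 12.1% and 14.3%. These ratios use RNA levels, say nothing of protein, and were not tested.

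CBP30 was next compared between its concentrations and with I-CBP112 at matched concentrations. From 2 to 5 µM CBP30, 3 members fell and 1 rose, where 38.9% of all genes were called (21.3% lower and 17.6% higher). MYC fell by 0.85 (adjusted p = 0.00032), PVT1 by 1.28 (adjusted p = 0.000452) and MAX by 0.38 (adjusted p = 0.0136), and MXD1 rose by 0.54 (adjusted p = 0.00725). The MAX call did not pass without replicate 1 or 2 of 5 µM CBP30 (adjusted p = 0.0718 and 0.0774), nor did that of MXD1 without replicate 1 (adjusted p = 0.0542). Without replicate 1 of 2 µM CBP30 the differences were −0.84 for MYC, −1.15 for PVT1, −0.26 for MAX and 0.40 for MXD1, all past the test, where 33.5% of all genes were called. A fit of only these groups called 0.0469% of all genes and 0 of the 4, with adjusted p of 0.108 to 0.153. From 2 to 5 µM I-CBP112, limma called 0 members and 0.0626% of all genes (0.00782% lower and 0.0547% higher), and 2 members had an unadjusted p under 0.05. Those were MYC, with a difference of −0.20 (95% interval −0.32 to −0.08, adjusted p = 0.587), and MNT, with −0.17 (−0.31 to −0.03, adjusted p = 0.737).

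At 2 µM, MYC was lower with CBP30 than with I-CBP112 by a difference of −0.68 (adjusted p = 0.000939), PVT1 by −1.18 (adjusted p = 0.000932) and MNT by −0.32 (adjusted p = 0.0177), where 15.6% of all genes were called (8.45% lower and 7.13% higher). These were also called without replicate 1 of 2 µM CBP30, at −0.69, −1.31 and −0.26. The MNT call did not pass without replicate 1 or 2 of 2 µM I-CBP112 (adjusted p = 0.0753 and 0.102). A fit of only these groups called 0.109% of all genes, and MYC, PVT1 and MNT did not pass in it (adjusted p = 0.152, 0.132 and 0.295). At 5 µM, 6 members were lower and 1 was higher with CBP30, where 31.4% of all genes were called (17.9% lower and 13.6% higher). The differences were −1.32 for MYC and −2.27 for PVT1 (adjusted p = 1.91e-05 for both). MAX (−0.36), MXI1 (−0.41), MNT (−0.25) and MLX (−0.21) were lower and MXD1 (0.40) was higher, with adjusted p of 0.0152 to 0.0207. Without replicate 1 or 2 of 5 µM CBP30 or of 5 µM I-CBP112, 2 or 3 members were called, where 14.5% to 15.2% of all genes were. MLX did not pass with the length trend removed (adjusted p = 0.126). The compounds did not differ past the test at 5 µM in MXD3 (−0.30, 95% interval −0.69 to 0.08), MXD4 (0.20, 0.004 to 0.41) or MGA (0.11, −0.29 to 0.51).

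The step from 2 to 5 µM itself differed between the compounds in 2 members, both more negative with CBP30, where 4.94% of all genes were called (3.32% lower and 1.63% higher). For MYC the steps were −0.85 with CBP30 and −0.20 with I-CBP112, and for PVT1 they were −1.28 and −0.19 (adjusted p of the difference = 0.0105 and 0.0106). The differences between the steps were −0.64 and −0.95, past the test, without replicate 1 of 2 µM CBP30, and 4 members and 17.7% of all genes were then called. For both genes the test failed without either sample of 5 µM CBP30 or of 5 µM I-CBP112, with adjusted p of 0.0504 to 0.0682, and for PVT1 also without replicate 1 of 2 µM I-CBP112 (adjusted p = 0.0637).

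Genes known to respond to MYC were then examined. Of 40 genes that MYC is known to activate, CBP30 downregulated 16 and upregulated 3 at 2 µM, where 16.3% of all genes were lower and 15.9% higher. It downregulated 32 and upregulated 1 at 5 µM, where 25.4% were lower and 21.2% higher. The median difference was −0.14 and −0.43, against 0.01 and −0.01 over all tested genes. NOP16, a ribosome assembly factor, was at 57.0 and 52.4 FPKM in DMSO and at 21.8 and 22.0 with 5 µM CBP30 (difference −1.28, adjusted p = 4.41e-05). TERT, the catalytic subunit of telomerase, fell by 1.12 and PPAN, another ribosome assembly factor, by 0.99. The only gene of the list called higher was PKM2, a pyruvate kinase of glycolysis, which rose from 176 and 174 to 561.6 and 565.3 FPKM (difference 1.68, adjusted p = 3.26e-05). With I-CBP112, 0 of the 40 were called at 2 µM in limma (6 had an unadjusted p under 0.05), and 3 fell and 1 rose at 5 µM, where 3.28% of all genes were lower and 3.84% higher. Among those called at 5 µM, NOP16 fell by 0.37 and TERT by 0.37, and PKM2 rose by 0.62. Without replicate 1 of 2 µM CBP30, 22 of the list fell and 3 rose at 2 µM CBP30 (19.9% and 17.2% of all genes), and 16 fell and 2 rose at 5 µM I-CBP112 (12.4% and 10.5% of all genes). A fit of only the groups compared called 0 of the list at 2 µM CBP30 (1.28% and 1.12% of all genes). It called 11 lower and 1 higher at 5 µM I-CBP112 (6.69% and 6.29% of all genes). Median centring, quantile normalization and removal of the length trend gave 13 to 23 lower at 2 µM CBP30 (14.7% to 20.7% of all genes). They gave 30 to 33 lower at 5 µM CBP30 (24.4% to 28%) and 2 to 12 at 5 µM I-CBP112 (3% to 7.66%).

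Of 16 tested genes that MYC is known to repress, CBP30 upregulated 9 at 2 µM and 12 at 5 µM and downregulated 0 in limma (0 also at an unadjusted p under 0.05), with median differences of 0.54 and 0.55. Of all genes, 15.9% were higher at 2 µM and 21.2% at 5 µM. CDKN1A, an inhibitor of cyclin-dependent kinases, was at 5.20 and 5.91 FPKM in DMSO and at 17.0 and 18.3 with 5 µM CBP30 (difference 1.51, adjusted p = 0.000161). The antiproliferative genes BTG2 and BTG1 rose by 1.45 and 1.06, and SESN1, a stress-induced regulator of growth signaling, by 1.24. I-CBP112 upregulated 1 gene at 2 µM and 5 at 5 µM, where 0.868% and 3.84% of all genes were higher, with median differences of 0.11 and 0.21. CDKN1A rose by 0.91 (adjusted p = 0.0108) and BTG2 by 0.78 (adjusted p = 0.000554) with 5 µM I-CBP112. Without replicate 1 of 2 µM CBP30, 10 were higher and 1 was lower at 2 µM CBP30 (17.2% and 19.9% of all genes), and 9 were higher at 5 µM I-CBP112 (10.5%). A fit of only the groups compared called 1 higher at 2 µM CBP30 (1.12% of all genes) and 0 at 2 µM I-CBP112 (0.156%).

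Genes of proteins that work with the network were read against all genes, of which 25.4% fell and 21.2% rose with 5 µM CBP30. Of 16 MYC cofactors, 6 fell and 1 rose with 5 µM CBP30 (median −0.09), among them the chromatin remodeling ATPases RUVBL2 (−0.76) and RUVBL1 (−0.66), the acetyltransferase KAT2A (−0.43) and the histone methylation subunit WDR5 (−0.39). Of 17 SIN3 complex subunits, through which the MXD proteins and MNT repress, 6 rose and 1 fell (median 0.15). BRMS1L rose by 0.61, ARID4B by 0.52 and the deacetylase HDAC1 by 0.49, and FAM60A fell by 0.51. Of 17 genes that control MYC protein turnover, 6 rose and 2 fell (median 0.07), with GSK3B, a kinase that marks MYC for degradation, up by 0.81, the deubiquitinase USP28 by 0.61 and the ubiquitin ligase subunit SKP2 by 0.38, and USP36, a nucleolar deubiquitinase, down by 0.55. Of 10 partners of MGA in PRC1.6, 4 fell and 2 rose (median −0.0037), including PCGF6 (−0.63), L3MBTL2 (−0.53), RYBP (0.41) and WDR5. With 5 µM I-CBP112, limma called 0 genes of these 4 lists (7.12% of all genes), and 2, 1, 2 and 2 of them had an unadjusted p under 0.05.

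Of 4 other network genes, MYCL1, MLXIPL and MLXIP passed the filter. MYCL1, a MYC paralog, was at 12.6 and 12.8 FPKM in DMSO and at 2.59 and 2.42 with 5 µM CBP30, a difference of −1.97 (adjusted p = 4.52e-06). At 2 µM CBP30 it was at 6.86 and 6.30 FPKM. I-CBP112 at 5 µM also downregulated MYCL1, to 10.2 and 9.35 FPKM (−0.35, adjusted p = 0.0337, but 0.0539 with quantile normalization). MYCN was listed at 0 in all samples. MLXIPL, a Mondo family partner of MLX, was at 1.65 and 1.47 FPKM in DMSO and at 0.768 and 0.649 with 5 µM CBP30 (−0.58, adjusted p = 0.00365). With 2 and 5 µM I-CBP112 its differences of 0.41 and 0.29 did not pass the test (adjusted p = 0.137 and 0.168), although the latter did without replicate 1 of 2 µM CBP30 (adjusted p = 0.0413). MLXIP, another Mondo family partner of MLX, was lower with 2 µM CBP30 (−0.48, adjusted p = 0.0337), at 11.9 and 17.03 FPKM against 20.6 and 20.1 in DMSO. Leaving out replicate 1 of that group gave −0.24 (adjusted p = 0.00831), and a fit of only these groups gave an adjusted p of 0.218. With 5 µM CBP30 it was 0.04 (adjusted p = 0.826). Of the Mondo target genes TXNIP and ARRDC4, TXNIP rose by 0.18 with 5 µM CBP30 (adjusted p = 0.0237), and ARRDC4, chosen after its values were seen, rose by 0.38 with 5 µM I-CBP112 (adjusted p = 0.00445).

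Likeness to MYC was described by Pearson's r of log2(FPKM + 1) over the 10 samples, among 8746 genes whose mean reached 5 FPKM. The samples share their groups, so r mostly reflects the 5 group means. The most similar were PTPRR, a receptor tyrosine phosphatase (r = 0.998), ACE, the angiotensin-converting enzyme (0.997), PFKFB3, a regulator of glycolysis (0.997), TAF9, a subunit of general transcription complexes (0.997), and POLR3E, an RNA polymerase III subunit (0.997). PTPRR, for example, had a mean of 13.6 FPKM in DMSO, 4.53 at 2 µM CBP30, 1.72 at 5 µM CBP30, 9.05 at 2 µM I-CBP112 and 7.10 at 5 µM I-CBP112. Among the most opposite were ETV5 (r = −0.996), ARMCX3 (−0.995), PHTF1 (−0.994) and CMTM6 (−0.994). Of the members, PVT1 (0.974), MLX (0.963), MXI1 (0.941) and MNT (0.918) were closest to MYC. Among the 8746 genes they ranked 191, 306, 496 and 712 from the highest r. MAX was at 0.821 (rank 1444), MXD3 at 0.516 and MGA at 0.149, and MXD4 (−0.56) and MXD1 (−0.58) were negative.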

How the data were processed

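Polyadenylated RNA of K562 cells was sequenced from stranded libraries as single reads, with 2 biological replicates for each of 5 conditions. The submitters' processing notes name FastQC, TopHat2 2.0.10, Bowtie 1.0.0, SAMtools 0.1.19, Cufflinks 2.2.1 and Cuffnorm, and the hg19 genome. The authors deposited 1 table of FPKM values per gene and sample, without pooling replicates. FPKM relates fragments to transcript length and library size, so a change in a few abundant genes shifts all others, and overlapping genes can be split differently. No counts are held in the values, so no counting error was derived.

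Values were analysed as log2(FPKM + 1) in limma 3.58.1 (R 4.3.3), with lmFit over all 10 samples and eBayes with a trend, for the 12788 genes whose mean reached 0.5 FPKM. In 9 contrasts, a gene was called at a Benjamini-Hochberg adjusted p, over all tested genes, under 0.05. The fit was tested on simulated data, which held no trend with transcript length and no library that stood apart. The p-values rest on a spread between replicates that is pooled over all 5 groups, with 2 samples each, and moderated by eBayes. Leaving out a sample of any group can therefore change calls between other groups. Transcript lengths, for 12135 tested genes, and positions came from GENCODE on GRCh37, and promoters from RefSeq. Python 3.11.15, pandas 2.3.3 and matplotlib 3.10.9 were used for tables and plots.

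The members and gene lists were chosen with earlier results of these data known. Named genes are the members, up to 4 genes of each list with the largest difference among those called with 5 µM CBP30, and the 5 genes most and least like MYC. Some genes that this rule names are not reported here. The alternatives left out each sample in turn, used quantile normalization or median centring, set the pseudocount to 0.1, raised the filter to 5 FPKM or dropped it, ran eBayes with no trend, or fitted only the compared groups. Others were removal of the trend with transcript length, and the replicate number as a block with and without that removal. Alternatives for the list counts, other network genes and the ratio of PVT1 to MYC were added after seeing the data.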

Additional observations from a re-analysis of the deposited data

Results flagged for a closer look

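The step from 2 to 5 µM differed between the compounds for MYC and PVT1, by a test of the difference itself in limma over all genes. For MYC the step with CBP30 minus the step with I-CBP112 was −0.65 ± 0.0743 (SE) on the log2(FPKM + 1) scale (adjusted p = 0.0105), and for PVT1 it was −1.09 ± 0.126 (adjusted p = 0.0106). All samples of 5 µM CBP30 were lower than all of 2 µM CBP30 for both genes, and the difference passed the test in 4.94% of all tested genes. Both are genes of the same region and the same cells, so they are not independent. For MYC it did not pass without replicate 1 or 2 of 5 µM CBP30 (adjusted p = 0.0594 and 0.066) or of 5 µM I-CBP112 (0.0682 and 0.0504), nor with quantile normalization (−0.42, adjusted p = 0.0536). For PVT1 it did not pass without those samples or replicate 1 of 2 µM I-CBP112 (adjusted p = 0.0565 to 0.0643), and the sign was the same in each case.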

How the results depend on the processing

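Among the member differences from DMSO, and those called in the other contrasts, 11 of the 30 called passed the test in every alternative run. Over 600 refits of the 30, the test was lost in 59 and the sign changed in 0. The numbers of members called moved by over 1.5 times in some. With a filter at 5 FPKM and with the length trend removed, with or without the replicate block, 2 members were called with 5 µM I-CBP112 (1 as reported). With quantile normalization 0 were called with 2 µM I-CBP112. With only the groups compared in the fit, 2 were called for 2 µM CBP30, 0 for 2 µM and 4 for 5 µM I-CBP112, 0 between the CBP30 concentrations and 0 between the compounds at 2 µM. That fit has fewer samples. Leaving out 1 sample at a time gave 3 to 8 members for 2 µM CBP30, 6 to 8 for 5 µM CBP30, 0 to 1 and 1 to 4 for 2 and 5 µM I-CBP112, 2 to 6 between the CBP30 concentrations, 2 to 7 and 2 to 8 between the compounds at 2 and 5 µM, and 0 to 6 for the difference between the steps. There a group of 1 sample is assumed to vary like the others. The log2 ratio of MYC to the repressors with 5 µM CBP30 minus DMSO was −1.73, and −2.08 with the median of the repressors in place of their sum. The cause of these shifts was not tested.

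The signs that changed were of uncalled differences. Quantile normalization gave −0.0099 for MGA with 5 µM CBP30 and −0.000799 for MNT with 2 µM I-CBP112, and removal of the length trend, with or without the block, gave −0.081 for MXD3 with 2 µM CBP30 and −0.126 for MGA with 5 µM CBP30. The range over left-out samples was −0.161 to 0.084 for MAX and −0.20 to 0.37 for MXD3 at 2 µM CBP30, −0.0583 to 0.069 for MGA at 5 µM CBP30, −0.0234 to 0.0496 for MNT, −0.0665 to 0.108 for MGA and −0.0249 to 0.0436 for MXD1 at 2 µM I-CBP112, and −0.0513 to 0.0051 for MXD1 and −0.195 to 0.0100 for MXD4 at 5 µM I-CBP112.

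The labels do not say whether same-numbered samples were handled together. The correlations of their deviations from the group means ran from −0.07 to 0.09 over 10 pairs of groups. These cannot decide it, because the noise of single genes enters them as well. With the replicate block 5, 7, 1 and 1 members were called with 2 and 5 µM CBP30 and 2 and 5 µM I-CBP112. Of all genes, 29.7%, 44.9%, 0.868% and 5% were called there, and the block changed no member's call. With 5 µM I-CBP112 under the block, 1 of the genes MYC activates was lower (3 as reported), with 2.26% of all genes. Of those it represses, 3 were higher (5 as reported), with 2.74% of all genes. MYCL1 did not pass there (adjusted p = 0.0586). With 2 samples per group and no read counts, differences of low genes could not be separated from counting error.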

Other observations

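Markers of other cell types changed in both directions. Of 8 such genes, 4 passed the filter. EPCAM, an epithelial adhesion molecule, was present at 31.8 to 59.7 FPKM over the 10 samples and fell by 0.85 with 5 µM CBP30 (adjusted p = 0.000989). CD3E, a T-cell receptor subunit, was at 0.883 to 3.31 FPKM and rose by 1.01 (adjusted p = 0.000529), and COL1A1, a fibroblast collagen, was at 0.442 to 2.02 FPKM and rose by 0.98 (adjusted p = 9e-05). The summed level of the 8 markers was 61.3 to 62.3 FPKM in DMSO, 37.7 to 39.2 with 5 µM CBP30 and 49.4 to 50.2 with 5 µM I-CBP112.

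Of the microRNA genes within PVT1, MIR1205, MIR1206, MIR1207 and MIR1208 were listed at 0 in all samples. MIR1204 was listed at 48.8 FPKM in replicate 2 of 2 µM CBP30 and at 0 in the other samples, in libraries that were made from polyadenylated RNA.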
